A study of Mus musculus with 12 samples.

Results

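The genes described here encode kinases, phosphatases and adaptors that carry signals from the immunoreceptors of leukocytes. They were listed by symbol as Syk, Lyn, Btk, Plek, Vav1, Lcp2, Inpp5d, Ptpn6 and Pik3cd, and a gene was taken as measured where the array annotation gave a probe its symbol or an older alias. Of the 9 genes listed, 8 were measured, by 9 probes, out of 19896 genes with a named probe. Syk had 2 probes and the other measured genes had 1 each. Lyn, a Src family kinase, was not analysed here, since neither its symbol nor any of its older aliases named a probe.

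RNA of mouse aortic arches was hybridised to 12 two-colour arrays, 3 for each of 4 groups. In 3 groups the mice were Apoe-/- on C57BL/6, labelled as given no drug, and had eaten a high-fat diet for 8, 16 or 24 weeks. The controls were wild type C57BL/6 mice on the same diet for 16 weeks. Feeding began at the same age of 8 weeks in every mouse. Longer diet therefore meant older mice, and the controls matched the 16-week group alone in both age and diet time. Each array held the pooled RNA of 3 mice, except pool 2 at 8 weeks, which held that of 2 mice. The pool carried Cy5, and Cy3 marked a common reference of Apoe-/- arch RNA, mixed equally from the 3 diet times and labelled as a vehicle pool of 21 mice. No agent is named for that vehicle. Pools 16 to 18 were wild type, pools 1 to 3, 4 to 6 and 10 to 12 were Apoe-/- at 8, 16 and 24 weeks, and pools 3 and 6 bear an asterisk that the sources used here do not explain. All values below are log2 ratios of a pool to the reference, or differences between the group means of such ratios. A ratio carries no level, so no gene's level can be set against another's, and whether a probe lay above background is not known.

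Receptors such as those for immunoglobulin and antigen, and many myeloid receptors, signal through tyrosine motifs in their own tails or in those of partner chains. Src family kinases such as Lyn phosphorylate the motifs, Syk docks there and becomes active, and adaptors, Tec family kinases, phosphoinositide 3-kinase and guanine nucleotide exchange factors assemble on the products. Inhibitory receptors recruit the phosphatases encoded by Ptpn6 and Inpp5d, which shut the same pathway down. The pathway is well known in macrophages, mast cells, platelets and lymphocytes. Macrophages are the main leukocytes of the atherosclerotic wall.

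Apoe itself followed the labels. Wild type pools 16, 17 and 18 read 2.62, 2.01 and 2.85, as log2 ratios, and the values lay between -0.20 and 0.23 in the 9 Apoe-/- pools. Its single probe has no stated position relative to the deleted part of the gene. The median deposited log10 ratio of an array was between -0.0025 and 0.0181, and the interquartile range on the log2 scale ran from 0.118 in pool 10 to 0.466 in pool 2. The arrays at 24 weeks correlated negatively across probes with those of wild type (median r = -0.431), of 8 weeks (median r = -0.538) and of 16 weeks (median r = -0.329). Direction was kept here because the dye of each channel is in the labels.

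Most of the measured genes were higher in the Apoe-/- arch, and the difference from wild type was wider at each longer diet time for 7 of the 8. At 8 weeks 5 of the 8 rose against wild type, namely Syk, Plek, Vav1, Inpp5d and Ptpn6. The same test called 1.76% of all 19705 genes higher. With quantile normalization between arrays, none of these 5 kept its call at 8 weeks. At 16 weeks 6 of 8 rose, with Lcp2 added, against 6.03% of all genes. At 24 weeks 7 of 8 rose, with Pik3cd added, against 11.6%. None was lower in any of these comparisons, by limma with p-values adjusted over all genes tested. The median difference of the 8 genes was 0.78 at 8 weeks, 1.49 at 16 weeks and 2.56 at 24 weeks, and that of all genes was between -0.04 and -0.01. The 3 comparisons share the wild type pools and so are not independent. In RNA of a whole tissue, a change in the number of cells of a type and a change in the RNA per cell cannot be told apart.

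**Figure D1:**
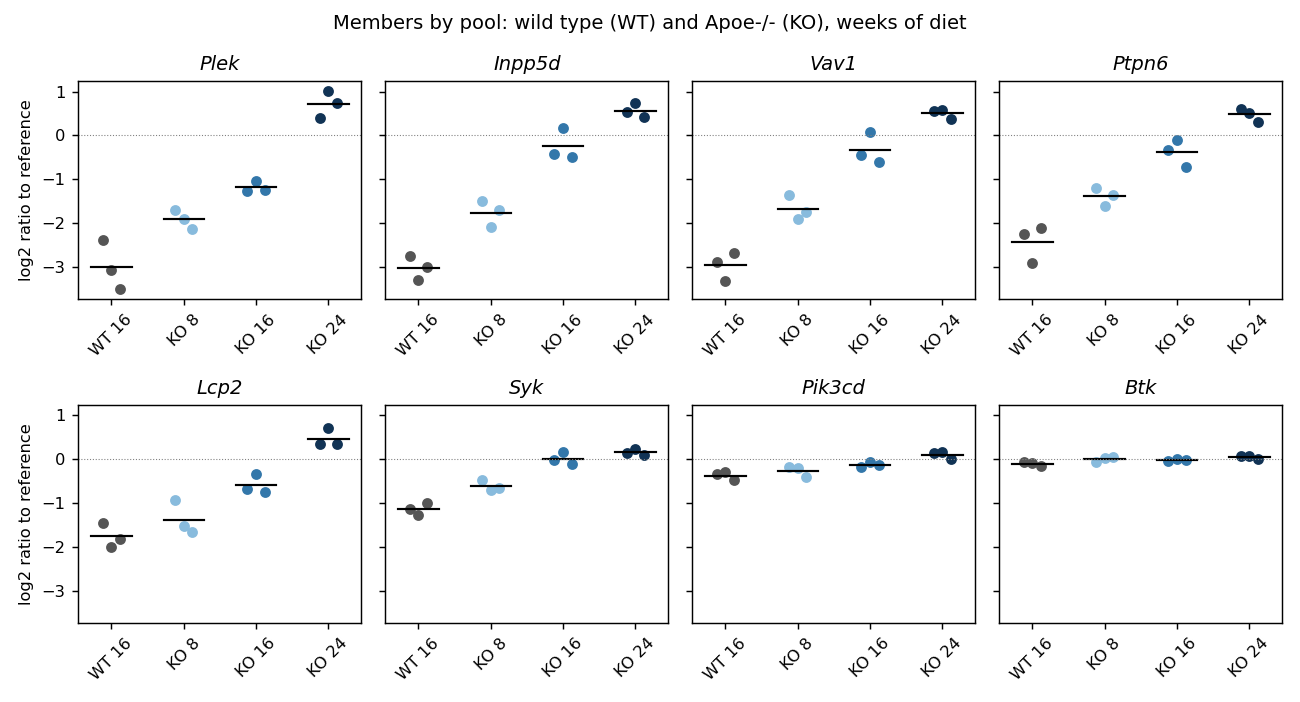
Log2 ratio to the common reference (vertical axis) of the 8 measured genes in each of the 12 pools, by genotype and weeks of diet (horizontal axis); points are pools and bars are means of 3 pools. Plek, Inpp5d, Vav1 and Ptpn6 climb through all 4 groups with no overlap, and Btk stays between -0.16 and 0.07 in every pool. The share of all genes that separate the 4 groups in this way was not computed.

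Inpp5d encodes SHIP1, the inositol phosphatase that removes the lipid product of phosphoinositide 3-kinase in blood cells. The gene lies at chr1:87620312-87720510 (GRCm38.p6). Wild type pools 16, 17 and 18 had log2 ratios of -2.75, -3.29 and -3.00, and the 8-week pools 1, 2 and 3 had -1.50, -2.09 and -1.69. The 16-week pools 4, 5 and 6 read -0.41, 0.18 and -0.48, and the 24-week pools 10, 11 and 12 read 0.53, 0.73 and 0.42. The 4 groups did not overlap, and each was above the one before it. For this gene and those below, the share of all genes that separate the groups in this way was not computed. Against wild type, Inpp5d rose 2.38-fold at 8 weeks (95% interval of the fold 1.74 to 3.26, adjusted p = 0.0108). At 16 weeks it was 6.85-fold higher (interval 5.01 to 9.36, adjusted p = 1.53e-05) and at 24 weeks 11.9-fold (interval 8.71 to 16.3, adjusted p = 6.84e-07).

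Ptpn6 encodes SHP-1, the tyrosine phosphatase that inhibitory receptors bring to the membrane, at chr6:124720707-124738709. Its ratio was -2.24, -2.91 and -2.11 in the wild type pools, -1.19, -1.60 and -1.35 at 8 weeks, -0.33, -0.10 and -0.71 at 16 weeks, and 0.60, 0.52 and 0.32 at 24 weeks, in the pool order above. Again no group overlapped another, and wild type pool 17 was the lowest of all. Ptpn6 was 2.06-fold higher than in wild type at 8 weeks (log2 difference 1.04 ± 0.21, SE, n = 3 pools per group, limma adjusted p = 0.0296), 4.12-fold at 16 weeks (2.04, adjusted p = 0.000121) and 7.46-fold at 24 weeks (2.90, adjusted p = 3.09e-06). Quantile normalization between arrays gave 8-week differences of 0.22 for Inpp5d (adjusted p = 0.755) and 0.24 for Ptpn6 (adjusted p = 0.726), and Ptpn6 was then 0.74 above wild type at 16 weeks (adjusted p = 0.0876). Leaving out a pool raised the 8-week adjusted p to as much as 0.0597 for Inpp5d and 0.0957 for Ptpn6.

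Vav1 encodes a guanine nucleotide exchange factor of blood cells, which acts once Syk has phosphorylated it, and lies at chr17:57279100-57329236. Its ratio was -2.88, -3.32 and -2.67 in wild type, -1.36, -1.90 and -1.75 at 8 weeks, -0.45, 0.08 and -0.60 at 16 weeks, and 0.55, 0.58 and 0.38 at 24 weeks. The groups were as cleanly separated as for Inpp5d. Of all pairs among the 8 genes, Vav1 and Inpp5d had the most similar ratios over the 12 arrays, with a mean absolute difference of 0.115. The rise of Vav1 over wild type was 2.44-fold at 8 weeks (1.29 ± 0.21, adjusted p = 0.0101), 6.21-fold at 16 weeks (2.63, adjusted p = 2.12e-05) and 11.0-fold at 24 weeks (3.46, adjusted p = 8.1e-07). It kept its call at 8 weeks whichever pool was left out (highest adjusted p = 0.0482), but quantile normalization gave 0.30 there (adjusted p = 0.634).

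Plek encodes pleckstrin, the main protein kinase C substrate of platelets, also found in other blood cells, and lies at chr11:16971206-17008718. Its ratio was -2.39, -3.06 and -3.50 in wild type, -1.69, -1.90 and -2.13 at 8 weeks, -1.26, -1.03 and -1.24 at 16 weeks, and 0.39, 1.01 and 0.74 at 24 weeks. The groups did not overlap, and the pools passed from below the reference at 16 weeks to above it at 24 weeks. The group means were -1.18 ± 0.13 (SD, n = 3) at 16 weeks and 0.71 ± 0.31 at 24 weeks. Plek was 2.11-fold above wild type at 8 weeks (1.08 ± 0.25, adjusted p = 0.0479), 3.51-fold at 16 weeks (1.81, adjusted p = 0.000746) and 13.0-fold at 24 weeks (3.70, confidence interval of the fold 8.92 to 18.9, adjusted p = 1.73e-06). With quantile normalization between arrays, its 8-week difference was 0.10 (adjusted p = 0.905), its 16-week difference turned to -0.46 (adjusted p = 0.283), and the 24-week difference was 2.61 (adjusted p = 2.57e-05).

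Markers of platelets and megakaryocytes are given beside Plek, since pleckstrin is abundant in platelets. The mean log2 ratio of the 9 measured platelet markers was between -0.97 and -0.69 in the wild type pools, -0.71 and 0.55 at 8 weeks, -0.03 and 0.46 at 16 weeks, and -0.39 and -0.10 at 24 weeks. Of the 9, 0, 5 and 0 were higher than wild type at 8, 16 and 24 weeks, beside 1.76%, 6.03% and 11.6% of all genes. From 16 to 24 weeks, where Plek rose 3.70-fold, all 9 had differences below 0, between -0.88 and -0.01, and none passed the test. The part of platelets in the Plek values was not tested.

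Lcp2 encodes SLP-76, the adaptor that Syk and its relative Zap70 phosphorylate and that gathers Vav1 and phospholipase C gamma, at chr11:34046928-34092281. Its ratio was -1.46, -1.995 and -1.81 in wild type, -0.93, -1.53 and -1.66 at 8 weeks, -0.68, -0.35 and -0.75 at 16 weeks, and 0.35, 0.71 and 0.35 at 24 weeks. The pools at 8 weeks overlapped wild type, and the later groups lay apart. The 8-week difference was 0.38 ± 0.20 (adjusted p = 0.296) and did not pass. Lcp2 rose 2.24-fold at 16 weeks (1.17 ± 0.20, adjusted p = 0.00359) and 4.67-fold at 24 weeks (2.22, adjusted p = 1.48e-05). Quantile normalization turned the 16-week difference to -0.06 (adjusted p = 0.863), and that at 24 weeks was then 1.57 (adjusted p = 2.8e-05).

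Syk encodes the tyrosine kinase that starts the cascade at phosphorylated receptor chains, and lies at chr13:52582610-52648792. Its probes disagreed, so they are given one by one. The first read -2.34, -2.65 and -2.06 in wild type, -0.98, -1.57 and -1.29 at 8 weeks, -0.13, 0.25 and -0.27 at 16 weeks, and 0.31, 0.50 and 0.24 at 24 weeks. The second stayed between -0.06 and 0.16 on all 12 arrays. On the first probe, wild type and 8 weeks stood apart from each other and from the later groups, while a pool at 16 weeks (0.25) reached the 24-week range. Fitted alone, that probe was 2.10-fold above wild type at 8 weeks (adjusted p = 0.0215), 4.93-fold at 16 weeks (adjusted p = 3.59e-05) and 6.50-fold at 24 weeks (adjusted p = 2.93e-06). The second probe differed from wild type by -0.02, -0.00 and -0.12 (adjusted p = 0.888, 0.991 and 0.246).

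Averaged over both probes, Syk rose 1.44-fold at 8 weeks (adjusted p = 0.0184), 2.22-fold at 16 weeks (adjusted p = 3e-05) and 2.45-fold at 24 weeks (adjusted p = 3.45e-06). These folds are smaller than those of the first probe because the average holds the flat one. With quantile normalization the 8-week difference was 0.24 (adjusted p = 0.462). No source used here says which transcript each probe reads.

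**Figure D2:**
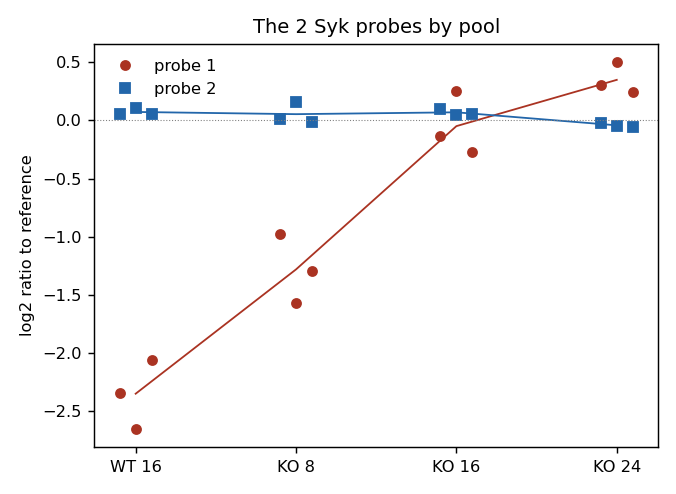
Log2 ratio to the reference (vertical axis) of the 2 Syk probes in each pool by group (horizontal axis); points are pools and lines join the means of 3 pools. Probe 1 climbs from between -2.65 and -2.06 in wild type to between 0.24 and 0.50 at 24 weeks, and probe 2 stays between -0.06 and 0.16.

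Pik3cd encodes the catalytic delta subunit of phosphoinositide 3-kinase, the form best known in leukocytes, at chr4:149649168-149702566. Its ratio was -0.34, -0.30 and -0.48 in wild type, -0.17, -0.20 and -0.41 at 8 weeks, -0.18, -0.06 and -0.14 at 16 weeks, and 0.14, 0.16 and 0.01 at 24 weeks. Neighbouring groups overlapped up to 16 weeks, and the 24-week pools were above all others. Pik3cd was 1.39-fold higher than wild type at 24 weeks (0.48 ± 0.08, adjusted p = 0.00167). At 8 weeks its difference was 0.11 (adjusted p = 0.451) and at 16 weeks 0.25 (adjusted p = 0.0964).

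Btk encodes Bruton's tyrosine kinase, the Tec family kinase of B cells and myeloid cells, at chrX:134542334-134583628. Its ratio was -0.05, -0.10 and -0.16 in wild type, -0.07, 0.02 and 0.05 at 8 weeks, -0.05, 0.01 and -0.03 at 16 weeks, and 0.07, 0.07 and 0.01 at 24 weeks. All values lay close to the reference, and the Apoe-/- groups overlapped one another. The difference from wild type was 0.10 at 8 weeks, 0.08 at 16 weeks and 0.15 at 24 weeks, with adjusted p = 0.34, 0.515 and 0.0951. At 24 weeks Btk passed with quantile normalization (0.20, adjusted p = 0.0372), with array medians subtracted (0.19, adjusted p = 0.0398) and with array weights (0.12, adjusted p = 0.0486). The confidence interval of the 24-week difference ran from 0.02 to 0.29.

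**Figure D3:**
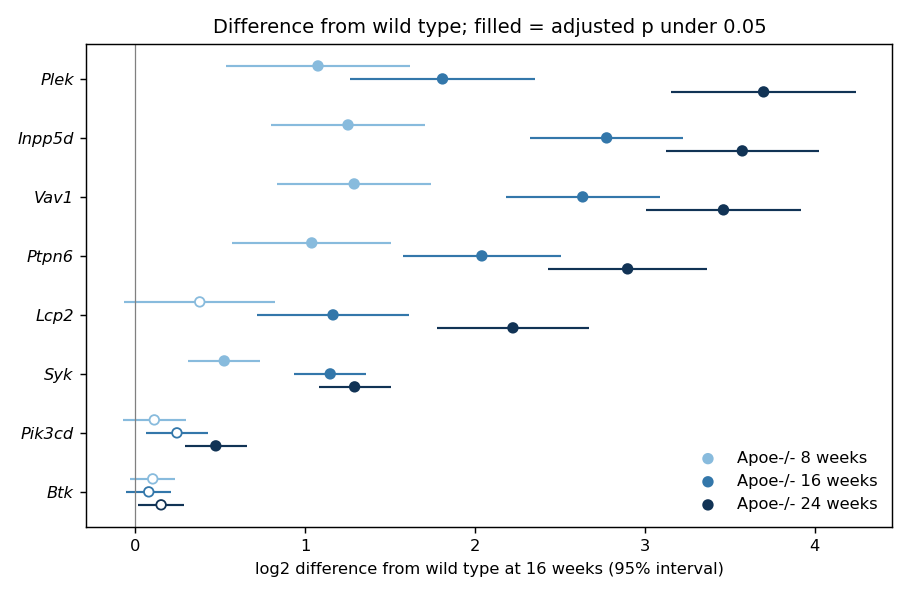
Log2 difference from wild type at 16 weeks (horizontal axis) of the 8 genes (vertical axis) at 3 diet times; points are differences between means of 3 pools, bars are 95% confidence intervals from limma, and filled points passed an adjusted p of 0.05. The differences at 24 weeks run from 0.15 for Btk to 3.70 for Plek.

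The diet times were also compared within the Apoe-/- mice. The wild type mean did not enter these comparisons, but the wild type pools stayed in the fit and in its estimate of the spread between pools. A moderated F test over the 3 times passed for 7 of the 8 genes, against 18.3% of all genes, with adjusted p from 0.000117 for Inpp5d to 0.0286 for Pik3cd. Btk did not pass (adjusted p = 0.641). From 8 to 24 weeks the same 7 rose (14.7% of all genes were higher), by 6.16-fold for Plek, 4.99-fold for Inpp5d, 4.51-fold for Vav1, 3.63-fold for Ptpn6, 3.59-fold for Lcp2, 1.70-fold for Syk and 1.29-fold for Pik3cd. Length of diet and age cannot be told apart in these differences.

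The genes differed in the interval in which they passed the test. From 8 to 16 weeks, 4 of 8 rose, against 1.89% of all genes. They were Inpp5d by 2.87-fold (adjusted p = 0.00593), Vav1 by 2.54-fold (adjusted p = 0.00813), Ptpn6 by 2.00-fold (adjusted p = 0.0332) and Syk by 1.54-fold (adjusted p = 0.00813). Plek (0.73, adjusted p = 0.175) and Lcp2 (0.78, adjusted p = 0.0742) did not pass. None of the 8 was called in this interval with quantile normalization, under which Plek turned to -0.57, or with only both groups compared in the fit. From 16 to 24 weeks, 5 of 8 rose, against 3.98%. Plek rose 3.70-fold (adjusted p = 0.00431), Lcp2 2.08-fold (adjusted p = 0.0159), Ptpn6 1.81-fold (adjusted p = 0.0401), Vav1 1.78-fold (adjusted p = 0.0408) and Inpp5d 1.74-fold (adjusted p = 0.0457). Syk differed by 0.14 in this interval (adjusted p = 0.411), and its first probe alone by 0.40 (adjusted p = 0.28). Whether the later step differed from the earlier one is taken up in the closing observations.

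These counts rested in part on single pools. At 8 weeks against wild type, 1 of 8 genes was called without wild type pool 17, and 3 without pool 1, 3, 11 or 16. Over all genes, 347 were called higher with every pool, 111 without pool 17, and between 190 and 409 without pool 1, 3, 11 or 16. From 16 to 24 weeks, 1 was called without pool 4, 6, 11 or 12, and 2 without pool 3, 10 or 16, while Plek kept its call throughout (highest adjusted p = 0.0299). The count over all genes in that interval went from 785 to 79, 157, 92 and 148 without pool 4, 6, 11 and 12. Without pool 3, 10 and 16 it was 763, 446 and 633. At 16 and at 24 weeks against wild type, the counts of 6 and 7 were the same whichever pool was left out. Over all genes they ranged from 843 to 1567 and from 1717 to 2807. With quantile normalization between arrays the counts at 8, 16 and 24 weeks were 0, 3 and 8, and over all genes 0, 400 and 2579.

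Within the Apoe-/- groups, the same pools were high or low for most of the genes. Pool 5 was the highest at 16 weeks for 8 of 8 genes, pool 1 the highest at 8 weeks for 7 of 8, and pool 12 the lowest at 24 weeks for 7 of 8. The same shares over all genes were not computed. Pools 5 and 1 had the narrowest interquartile range of log2 ratios in their groups (0.124 and 0.168), and that of pool 12 (0.164) lay between its neighbours. The part of array spread in this order was not tested. Among the wild type pools, pool 16 was the highest for 4, pool 18 for 3 and pool 17 for 1, and pool 17 was the lowest for 5. The mean ratio of the 8 genes was -0.42, -0.14 and -0.51 in pools 4, 5 and 6, where the mean of 12 macrophage markers was -0.59, -0.22 and -0.42. In pools 10, 11 and 12 the mean of the 8 genes was 0.35, 0.50 and 0.29, and that of the macrophage markers 0.48, 0.48 and 0.32. Pool 5 thus had the highest mean of both at 16 weeks.

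Several marker lists moved with the groups. Of the 12 macrophage markers, 4, 7 and 10 were higher than wild type at 8, 16 and 24 weeks, and their mean ratio rose from between -2.17 and -1.80 in wild type to between 0.32 and 0.48 at 24 weeks. Among them Adgre1, a surface receptor of macrophages, was 15.5-fold and Csf1r 4.59-fold higher at 24 weeks, while Cd68 was 1.22-fold higher and Itgam differed by -0.57 without passing. Of 8 smooth muscle markers, 0, 5 and 7 were lower, beside 0.736%, 4.07% and 11.3% of all genes. The shares of all genes called higher at 8, 16 and 24 weeks were 1.76%, 6.03% and 11.6%. T cell markers were higher for 1 of 8 measured at each time, B cell markers for 0 of 7, neutrophil markers for 0, 2 and 3 of 8, and mast cell markers for 0, 0 and 1 of 7. Endothelial markers were higher for 2, 3 and 2 of 7, adipocyte markers for 2, 1 and 1 of 7, erythroid markers for 1, 0 and 0 of 4, and cardiac muscle markers for 0 of 6. All 6 cardiac markers had differences above 0 at 16 and 24 weeks, of at least 0.38 and 0.46. Their mean ratio varied widely between pools, from -1.70 to 1.15 at 16 weeks. The part of cell numbers in the rise of the signalling genes was not tested.

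Close relatives of the 8 genes, which do like work in other settings, were set against them. The quantity was the mean of the 9 Apoe-/- pools minus the mean of the 3 wild type pools, and the test an exact permutation of the 220 ways to place 3 pools, two-sided, adjusted over 12 pairs. The smallest p it can give is 0.00455, and 9 of the 12 pairs passed. How often other pairs of genes would pass was not computed, and a gene that rose strongly would pass beside many flat genes. None of the 12 passed after quantile normalization between arrays, and 5 passed without wild type pool 17 or 18. With a pool left out there are fewer ways to place the rest, so the smallest possible p is then larger.

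Syk was 0.99 above wild type, and Zap70, its relative in T cells, was at -0.16 (difference 1.15, exact permutation p = 0.00455, adjusted p = 0.0136). Ptpn6 was 1.99 above and Ptpn11, which encodes the broadly expressed SHP-2, 0.02 (difference 1.97, adjusted p = 0.0136 by the exact permutation test). Inpp5d was 2.53 above and Inppl1, which encodes the broadly expressed SHIP2, 0.40 (difference 2.13, adjusted p = 0.0136 by exact permutation). In these 3 pairs the difference from wild type was larger for Syk, Ptpn6 and Inpp5d than for the relative.

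The other exchange factors and pleckstrins followed the same order. Vav1 was 2.46 above wild type, Vav2 0.78 and Vav3 -0.06, with differences of 1.69 and 2.53 (exact permutation, adjusted p = 0.0136 and 0.0312). Plek was 2.19 above and Plek2 0.47 (difference 1.72, exact permutation, adjusted p = 0.0273). Pik3cd could not be separated from its relatives. Its mean was 0.28, that of Pik3ca -0.15, of Pik3cb 0.03 and of Pik3cg, the other leukocyte form, 0.28 (exact permutation, adjusted p = 0.131, 0.307 and 0.995).

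In a pair of families the order was turned round. Btk was 0.11 above wild type and Tec, the kinase that gives the family its name, 2.24 (difference -2.12, exact permutation, adjusted p = 0.0218). Btk rests on 1 probe, which stayed between -0.16 and 0.07 on all 12 arrays, as the second Syk probe stayed between -0.06 and 0.16. Whether the Btk probe lay above background is not known, so a flat probe and flat RNA cannot be told apart. The ratio of Tec lay between -3.11 and -2.61 in wild type and between 0.50 and 0.62 at 24 weeks, which was 10.3-fold higher (limma adjusted p = 7.48e-07). Bmx, a further Tec family kinase, was 0.53 above (difference -0.42, exact permutation, adjusted p = 0.0485). Blnk, the adaptor of B cells and macrophages that parallels Lcp2, was 2.02 above where Lcp2 was 1.26 (difference -0.76, exact permutation, adjusted p = 0.0341). Blnk was 11.5-fold higher than wild type at 24 weeks (limma adjusted p = 9.99e-07). Of the 7 B cell markers measured, 0 were higher at 24 weeks and 1 was lower, beside 11.6% and 11.3% of all genes. The differences of these markers from wild type ran from -0.29 to 0.62.

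**Figure D4:**
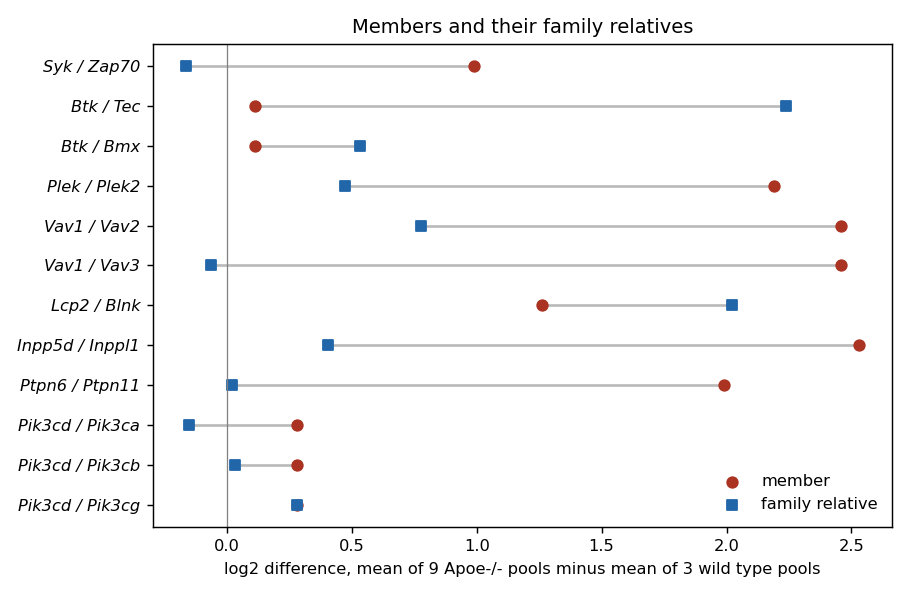
Log2 difference between the mean of 9 Apoe-/- pools and the mean of 3 wild type pools (horizontal axis) for 12 pairs of a described gene (circles) and a family relative (squares). Vav1, Inpp5d, Ptpn6, Plek and Syk lie right of their relatives, Btk and Lcp2 lie left of Tec and Blnk, and Pik3cd and Pik3cg coincide at 0.28.

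Regions before the listed gene starts were read from RefSeq for the 8 genes. The letters GAGGAA, on either strand, are the core that PU.1 binds, the transcription factor of myeloid and B cells. They occur in the 250 bases before a listed start of 4 of the 8 genes (4 of 11 windows, as some genes have several starts), and in 23.3% of 32851 promoters of the same table. The letters TATAAA, on either strand, are in 0 of the 11 windows and in 12.4% of all promoters. The 150 bases before the start are printed for those 4 genes and, since its ratio hardly moved, for Btk. They are given 5′ to 3′ on the gene's strand in build GRCm38.p6, with GAGGAA or its complement TTCCTC in capitals. Inpp5d is at chr1:87620162-87620311 (plus strand, motif at position -20), Vav1 at chr17:57278950-57279099 (plus, position -11), Plek at chr11:17008719-17008868 (minus, position -61), Syk at chr13:52596732-52596881 (plus, the second of 2 starts, position -9) and Btk at chrX:134583141-134583290 (minus). Positions count back from -1 at the last base before the start. The windows of Syk, Btk and Pik3cd lie before starts inside the gene spans given above, so the bases before those spans were not read.
Inpp5d: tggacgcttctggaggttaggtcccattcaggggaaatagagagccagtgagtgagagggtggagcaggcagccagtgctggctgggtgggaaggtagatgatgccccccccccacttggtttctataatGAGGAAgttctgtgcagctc
Vav1: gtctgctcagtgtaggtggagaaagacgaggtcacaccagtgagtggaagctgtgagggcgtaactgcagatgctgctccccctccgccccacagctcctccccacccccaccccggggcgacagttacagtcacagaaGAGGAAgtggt
Plek: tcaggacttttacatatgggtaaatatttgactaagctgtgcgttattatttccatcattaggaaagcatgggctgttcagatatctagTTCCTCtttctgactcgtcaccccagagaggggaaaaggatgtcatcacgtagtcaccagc
Syk: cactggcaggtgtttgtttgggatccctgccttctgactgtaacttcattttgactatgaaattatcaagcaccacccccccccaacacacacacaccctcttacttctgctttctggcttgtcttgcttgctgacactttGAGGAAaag
Btk: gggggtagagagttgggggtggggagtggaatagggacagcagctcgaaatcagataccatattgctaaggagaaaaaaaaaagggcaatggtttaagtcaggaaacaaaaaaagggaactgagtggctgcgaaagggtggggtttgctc
The motif lay within 20 bases of the start in Inpp5d, Vav1 and Syk. A match describes these letters and shows no binding. Where the motif was not found, as for Btk, Lcp2, Ptpn6 and Pik3cd, only these letters are missing from these windows. The first Syk window holds no match either. Ptpn6 and Lcp2, without a match, were 7.46-fold and 4.67-fold above wild type at 24 weeks, so the motif does not sort the genes by their rise.

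The rest of the pathway was described from 8 lists of 116 genes, 105 of them tested. Of these, 24 were higher than wild type at 8 weeks, 42 at 16 weeks and 56 at 24 weeks, which is 22.9%, 40% and 53.3%, beside 1.76%, 6.03% and 11.6% of all genes. At 24 weeks 2 were lower, the Src-inhibiting kinase Csk (-0.30, adjusted p = 0.0245) and the inhibitory receptor Siglece (-0.45, adjusted p = 0.00123), where 11.3% of all genes were lower. Named below are the 3 genes of each list with the widest called difference at 16 weeks.

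Upstream of Syk, 4 of 9 receptor chains with activating motifs were higher at 16 weeks. Tyrobp, which encodes DAP12, rose 7.35-fold (adjusted p = 4.46e-05), Fcer1g, the common chain of Fc receptors, 3.18-fold, and Cd3g of the T cell receptor complex 1.91-fold. Cd3d, Cd3e and Cd247, which encode other chains of that complex, were not called. Of 13 kinases, 5 were higher, with Tec at 4.99-fold, the focal adhesion kinase relative Ptk2b at 4.25-fold and Fes at 2.56-fold. Beside Lcp2, 7 of 20 adaptors were higher. Pik3ap1, which encodes the adaptor BCAP, rose 7.62-fold, Blnk 3.82-fold and Lat2 2.74-fold.

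Around Pik3cd and Inpp5d, 3 of 13 enzymes of lipid signalling were higher at 16 weeks. Pik3r5, a regulatory subunit of the gamma form of phosphoinositide 3-kinase, rose 3.42-fold, Plcg2, the phospholipase C gamma of B and myeloid cells, 2.00-fold, and Inppl1 1.40-fold. Around Vav1, 7 of 15 exchange factors and cytoskeletal genes were higher. Nckap1l, which encodes the blood cell form of a WAVE complex subunit, rose 9.17-fold, Rac2, a GTPase that Vav1 activates, 7.01-fold and Coro1a 6.54-fold. Around Ptpn6, 6 of 11 phosphatases were higher, with Ptprc, which encodes the leukocyte antigen CD45, at 9.36-fold, Ptpn18 at 3.96-fold and Ptpre at 3.92-fold.

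Downstream, 1 of 7 genes of the kinase and NF-kB module was higher at 16 weeks, Nfatc2 by 1.40-fold, and 3 of 7 at 24 weeks. The inhibitory receptors that recruit Ptpn6 and Inpp5d were higher for 9 of 17. Lilrb4a rose 19.7-fold, Cd22 12.7-fold and Pirb 11.8-fold. Lilrb4a and Pirb belong to families of near-identical genes, so which members their probes read is uncertain.

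Probes of 3 of the named genes disagreed as those of Syk did. The probes of Lat2 differed from wild type at 16 weeks by 2.97 and -0.06, those of Pik3r5 by 3.45 and 0.10, and those of Nfatc2 by 0.95 and 0.03. The probes of Pirb, at 3.62 and 3.50, were alike. The folds given for Lat2, Pik3r5 and Nfatc2 are averages of such pairs. The probes of Pik3ca, also averaged, differed from wild type by -0.23 and -0.26 at 16 weeks but by -0.63 and 0.08 at 24 weeks.

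**Figure D5:**
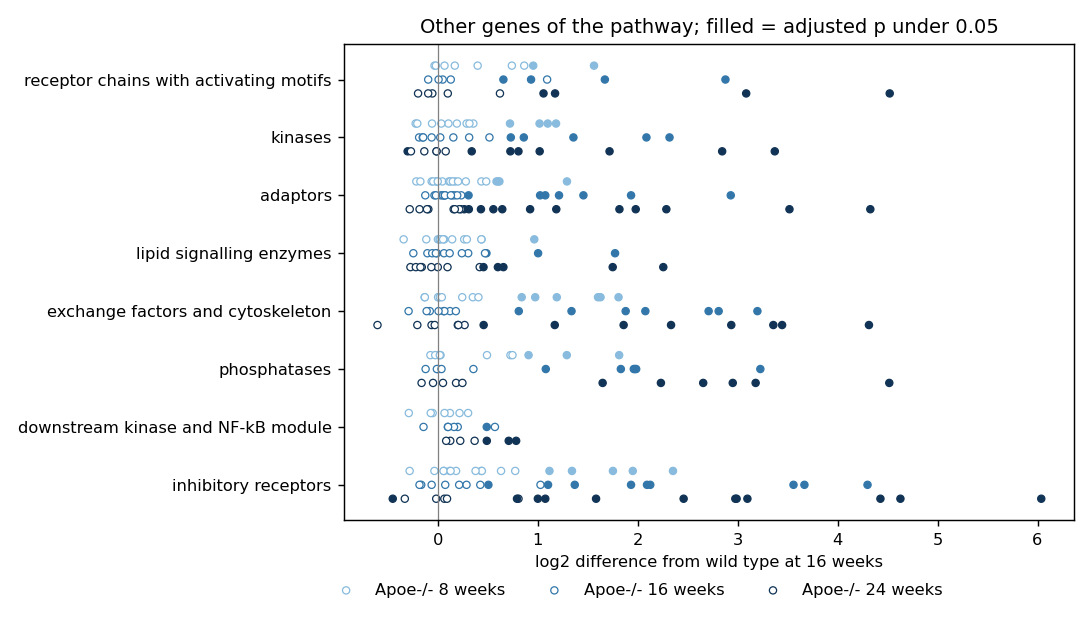
Log2 difference from wild type at 16 weeks (horizontal axis) of the 105 tested genes of 8 pathway lists (vertical axis), with a row of points for each Apoe-/- diet time; filled points passed an adjusted p of 0.05. Filled points lie mostly right of 0, and those of the downstream module reach no further than 0.78.

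Among all other genes tested, those whose ratios lay nearest to the mean of the 8 genes over the 12 arrays were found by the mean absolute difference. They were Tnfaip3 (0.108), an inhibitor of NF-kB signalling, Tlr2 (0.110), a Toll-like receptor, Litaf (0.110), Col8a1 (0.111), a collagen chain, and Nfkbie (0.121), another NF-kB inhibitor. Sh3bp2 (0.122), an adaptor that binds Syk and Vav1, came next, followed by Gcnt1, Arrb2, Nek6 and Plin2 at up to 0.132. For single genes the nearest were Tbxas1, thromboxane synthase, for both Vav1 (0.104) and Inpp5d (0.109), and Irf5 for Ptpn6 (0.080). Plek had the least close neighbour, Evi2a at 0.242. The nearest to Syk was Ttyh3 (0.075), to Lcp2 Tnfrsf26 (0.106), to Pik3cd Galnt3 (0.048) and to Btk H2-M2 (0.027). Genes that barely move, such as Btk, have near neighbours by this measure among all genes that barely move.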

How the data were processed

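The values analysed are the log10 ratios of pool over reference in the table the authors deposited, which has 39556 probes. Per the labels' protocols, RNeasy columns and DNase treatment gave the RNA. For scanner, background correction, normalization and filters, nothing is stated in the sources used here. Direction was settled from the dyes in the labels and from Apoe, and the log base from 7 probes high in a single Apoe-/- pool. The share of the reference that such a pool would need had a median of 14.9% in base 10, 35.6% in base 2 and 31% in base e. An equal share for each of the 9 Apoe-/- pools would be 11.1%. The labels do not say that these pools made up the reference, so that benchmark is an assumption. Multiplication by 3.322 turned the deposited values into log2 ratios. The method of centring is not known.

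A single gene symbol was given to 23283 probes and none to 16273. Symbols were updated with a RefSeq table of GRCm38.p6 (14510 current, 5952 replaced, 78 ambiguous and kept, 11 absent and kept). Probes of a gene were averaged, and the 19705 genes with a value on all 12 arrays were tested. limma 3.58.1 in R 4.3.3 fitted 1 mean per group (8 residual and 2.95 prior degrees of freedom). Its p-values are two-sided and adjusted over all genes tested (Benjamini-Hochberg), with a threshold of 0.05, and confidence intervals are 95%. The fit was tested on simulated data. No pool was imputed or dropped. The 3 pools of a group hold different mice, so p-values measure the spread between pools, and the number of arrays limits precision. The genes, the pathway and marker lists, the relatives and the tests were chosen with earlier results of these data known. Named pathway genes are the 3 of each list with the largest absolute called difference at 16 weeks against wild type, with every relative. Alternatives were quantile normalization, median centring, array weights, each probe on its own, robust eBayes, only the groups compared, a laxer filter on missing values, leaving out pools 3 and 6, and leaving out each pool.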

Additional observations from a re-analysis of the deposited data

How the results depend on the processing

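The counts of called genes depended most on quantile normalization and on the samples fitted. With quantile normalization, 0 of the 8 genes were called at 8 weeks, 3 at 16 weeks and 0 from 8 to 16 weeks. Over all genes it called 0 and 400 against wild type at 8 and 16 weeks, 1 from 8 to 16 weeks and 2572 from 16 to 24 weeks, and 0 of the 12 pairs of relatives. It turned the differences of Lcp2 (-0.053 at 8 and -0.062 at 16 weeks) and Plek (-0.46 at 16 weeks) below 0, and likewise from 8 to 16 weeks (-0.009 and -0.57). Quantile normalization forces the same spread of ratios on arrays whose spread differed. With only the groups compared in the fit, 0 of the 8 genes were called at 8 weeks and 0 from 8 to 16 weeks, and over all genes 23, 0, 1975 and 1873 at 8 weeks, from 8 to 16, 16 to 24 and 8 to 24 weeks. Such fits have fewer samples. Without pools 3 and 6, 3 of the 8 were called at 8 weeks and 1 from 16 to 24 weeks, over all genes 121 from 8 to 16 and 123 from 16 to 24 weeks, and Btk turned to 0.001 from 8 to 16 weeks. Fitting and adjusting over single probes, and counting a gene only if each of its probes passed, left 3 at 8 weeks and 3 from 16 to 24 weeks. Array weights gave 2302 genes at 16 weeks, 242 from 8 to 16 weeks, 3122 from 16 to 24 weeks and 6623 by the F test, and the causes of these shifts were not tested.

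Leaving out each pool in turn gave 1 to 4 of the 8 genes at 8 weeks, 6 to 6 at 16, 7 to 7 at 24, 3 to 5 from 8 to 16, 1 to 5 from 16 to 24 and 7 to 7 from 8 to 24 weeks, 6 to 7 by the F test and 5 to 9 pairs. Over all genes the ranges were 111 to 488, 843 to 1567, 1717 to 2807, 136 to 567, 79 to 1569 and 1728 to 3453, and 1840 to 4817 by F. The difference of Pik3cd and Pik3cg ranged from -0.030 to 0.025 and was above 0 without pool 4, 11, 12 or 18 (0.018, 0.025, 0.024 and 0.020). Among single genes and pairs, 999 recomputed values kept direction and side of the threshold, 122 lost their call, 9 gained one and 10 changed sign. No paired analysis was possible because the groups share no pool numbers. Ratios without intensities hide which probes were near background.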

Other observations

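Of the 105 other pathway genes, 6 fell from 8 to 24 weeks while 52 rose (14.1% of all genes were lower and 14.7% higher). Those that fell were Vav3 (-1.01 ± 0.30, adjusted p = 0.0295), the adaptor Grap (-0.56 ± 0.13, adjusted p = 0.0108), the kinase Src (-0.46 ± 0.13, adjusted p = 0.0215), the inhibitory receptors Siglece (-0.42 ± 0.08, adjusted p = 0.00251) and Clec12a (-0.39 ± 0.11, adjusted p = 0.0264), and Plcg1, the broadly expressed phospholipase C gamma (-0.23 ± 0.08, adjusted p = 0.0459). They were named after their values were seen. The mean of 8 smooth muscle markers fell over the same pools, from between 0.39 and 0.61 at 8 weeks to between -0.52 and -0.29 at 24 weeks, and its part in these differences was not tested.

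Whether a gene rose more from 16 to 24 weeks than from 8 to 16 weeks was tested with a limma contrast added after the values were seen. The later step minus the earlier one was 1.16 ± 0.43 for Plek (unadjusted p = 0.0204, limma adjusted p = 0.897) and -0.48 ± 0.17 for Syk (unadjusted p = 0.015, limma adjusted p = 0.851). Of all 19705 genes, 0 passed and 983 had an unadjusted p under 0.05 in limma, so these data do not show that the 2 steps differed for any gene.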
